A study of Mus musculus with 24 samples.

Results

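The comparison of 48 h with 36 h after estradiol withdrawal sets 2 libraries against 2, chosen by their labelled time, out of 24 libraries in the series. All libraries were made from Lys-GFP-ER-HoxA9 cells, C57Bl/6 mouse cells that, by their name and the series title, carry a lysozyme-GFP reporter and an estrogen receptor fusion of the homeobox protein HoxA9. The cells grew in RPMI1640 with FBS, Pen/Strep, Glutamine, Stem Cell Factor and 0.5 uM Beta-estradiol. For the groups compared here they were then kept without Beta-estradiol for 36 or 48 h, and RNA was sequenced after selection with oligo dT. The other libraries are 16 from 0, 4, 8, 12, 24, 72, 96 and 120 h of withdrawal, which entered the model as an estimate of spread, and 4 R07 libraries, which were left out. The labels do not state how many clones the line stands for or whether the 2 libraries of a time came from separate cultures, so every p-value measures the spread between these libraries, which may be technical. Libraries are called A and B by the letter of their column, which the labels do not tie to a replicate number.

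HoxA9 is a transcription factor of early blood progenitors that holds myeloid cells immature when its level stays high. In a fusion with the hormone-binding part of the estrogen receptor it works only while estradiol is present, so that washing the hormone out lets the cells mature along the granulocyte and monocyte lines. Maturing granulocytes fill their granules in order. Primary (azurophil) granules with myeloperoxidase and serine proteases come first, at the promyelocyte stage. Secondary (specific) granules with antimicrobial proteins such as cathelicidin, lactoferrin and neutrophilic granule protein follow, and then tertiary (gelatinase) granules, surface receptors and the oxidase that makes superoxide. Growth-related transcripts, such as those of ribosome production, usually decline along this path. The comparison addresses which transcripts moved in a single 12 h step in the middle of the course.

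The gene table gave 45.2 M and 46.6 M counts for libraries A and B at 36 h and 46.1 M and 49.6 M at 48 h, in a range of 36.7 to 49.6 M over the 24 libraries. The libraries of a time had a Pearson correlation across genes of 0.996 at 36 h and 0.995 at 48 h on the log2 scale. The variance between their counts averaged 18.6 and 29.2 times that of counting error alone (chi-square per gene). This ratio grows with a gene's count, so abundant genes weigh most in the average. It does not show for which genes depth limits the precision. On the line from the 36 h mean (0) to the 72 h mean (1) of all genes, the 48 h libraries lay at 0.345 (A) and 0.285 (B). Library A at 48 h thus lay further along that line than B. The libraries of 72 h differed by more (1.06 for A and 0.942 for B) and those of 36 h by less (0.0171 and -0.0171). Mitochondrially encoded genes took 1.23 and 0.880% of gene counts at 36 h and 1.12 and 1.17% at 48 h, and reads outside annotated genes took 4.64 and 4.07% of reads at 36 h and 4.42 and 5.43% at 48 h, highest in library B at 48 h.

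Between 36 and 48 h the called increases included many genes of myeloid maturation, and the called decreases included genes of progenitors and of ribosome production. Many members of these groups were not called. Of 14615 genes tested, 1862 (12.7%) were called, meaning a Benjamini-Hochberg adjusted p under 0.05 in edgeR's quasi-likelihood test. Of these, 1130 (7.73%) were higher and 732 (5.01%) lower at 48 h, and 403 (2.76%) changed at least 2-fold, 316 upward and 87 downward. The median called gene moved by 0.55 on the log2 scale, so most calls were modest. Of the called genes 1776 were protein-coding. Both 48 h libraries lay above both 36 h libraries for 27.7% of the genes tested, and below for 27%. Libraries weighed unequally on the count, which was 1079 without 36 h A, 557 without 36 h B, 693 without 48 h A and 1371 without 48 h B. The 463 genes called in each of these 4 fits, 367 higher and 96 lower, include 246 that changed at least 2-fold. Just inside the threshold lay Klhl6 (log2 0.29), Mns1 (-0.34) and Tapbpl (0.36), and just outside it Cyp4f13 (0.43), 1810006J02Rik (0.88) and Tmem40 (0.42).

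**Figure D1:**
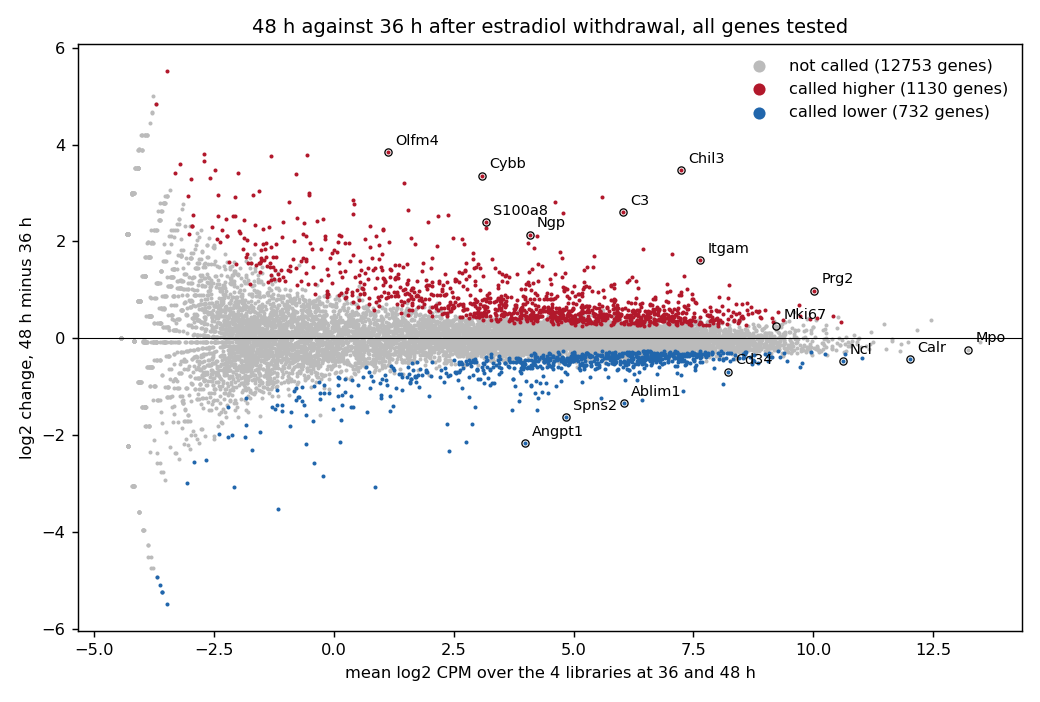
Log2 change from 36 to 48 h (vertical axis) against the mean log2 CPM of the 4 libraries (horizontal axis), 1 point for each of the 14615 genes tested; red points were called higher (1130) and blue points lower (732). Chil3, Cybb and C3 lie further above 0 than Angpt1 lies below it.

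Among called genes that averaged 3 or more log2 CPM over the 4 libraries, the largest increases were transcripts of granule contents, phagocyte enzymes and myeloid surface proteins. Only genes whose 36 h and 48 h values do not overlap were ranked, so that separation was fixed by the rule. Levels are CPM, counts scaled to library size, given for libraries A and B in that order or as mean ± SD of the 2, and changes are log2 values ± SE. Chil3, a secreted chitinase-like protein of neutrophils and macrophages (ENSMUSG00000040809.10, chromosome 3, 106147554 to 106167564, minus strand), stood at 51.6 and 40.3 CPM at 36 h and 589 and 433 CPM at 48 h. The groups lie far apart, with a fold of 11.1 and a log2 change of 3.47 ± 0.21 (adjusted p = 1.33e-09). Cybb, the membrane subunit of the phagocyte NADPH oxidase (ENSMUSG00000015340.7, chromosome X, 9435252 to 9487771, minus strand), stood at 2.82 and 2.45 CPM at 36 h and 31.5 and 22.6 CPM at 48 h, a fold of 10.3 (log2 3.36 ± 0.24, adjusted p = 1.85e-08). In both genes the 48 h value was higher in library A than in B. C3, the central complement component (ENSMUSG00000024164.12, chromosome 17, 57203970 to 57228136, minus strand), had 30.2 and 24.0 CPM at 36 h and 205 and 125 CPM at 48 h (log2 2.60 ± 0.20, adjusted p = 5.67e-08). Ly6c2, which encodes a surface antigen of monocytes and maturing granulocytes, had 11.2 and 11.4 CPM at 36 h and 79.3 and 57.1 CPM at 48 h (log2 2.60 ± 0.14, adjusted p = 6.76e-10). Its 36 h libraries nearly coincide, while its 48 h libraries differ by more. S100a8, a calcium-binding protein abundant in neutrophil cytoplasm, had 4.37 and 3.59 CPM at 36 h and 27.5 and 14.7 CPM at 48 h (log2 2.41 ± 0.26, adjusted p = 3.14e-06). Ngp, neutrophilic granule protein (ENSMUSG00000032484.8, chromosome 9, 110419747 to 110423012, plus strand), had 8.48 and 7.93 CPM at 36 h and 46.3 and 26.2 CPM at 48 h (log2 2.14 ± 0.25, adjusted p = 9.66e-06). For S100a8 and Ngp the 48 h libraries differed by more than the lower of them exceeded 36 h. Chil3 has a close relative in Chil4 and Ly6c2 in Ly6c1. Multimapping reads stand in a line of their own that was left out, so the levels of such pairs may miss reads that fit both.

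The other members of these 15 increases include receptors, enzymes, a protease inhibitor, an extracellular protein and an antibody chain. Prom1, the membrane protein known as CD133, had 4.13 and 4.07 CPM at 36 h and 21.8 and 17.8 CPM at 48 h (log2 2.27 ± 0.16). Clec4a2, an inhibitory C-type lectin of myeloid cells, had 55.8 and 37.5 CPM at 36 h and 178 and 158 CPM at 48 h (log2 1.85 ± 0.15). Csf1r, the receptor for the macrophage growth factor CSF1, had 23.7 and 24.2 CPM at 36 h and 87.5 and 69.3 CPM at 48 h (log2 1.71 ± 0.20). In all of them, by the rule that picked them, the lower 48 h library was above the higher 36 h library. Ighm, the constant region of the immunoglobulin mu chain, rose by 1.78 ± 0.13 on the log2 scale, the fatty acid elongation enzyme gene Hacd4 by 1.97 ± 0.14, and Olfml2b, which encodes an extracellular olfactomedin-like protein, by 1.87 ± 0.18. Stfa1, a cysteine protease inhibitor of the stefin family with several near-identical copies, rose by 1.74 ± 0.20, from 73.2 ± 17.8 to 244 ± 50.3 CPM. Siglece, an inhibitory receptor for sialic acid, rose by 1.65 ± 0.13, and Fgr, a Src family kinase of phagocytes, by 1.65 ± 0.17. All 15 had a higher value in library A than in B at 48 h, and all 15 stayed called without each of the 4 libraries in turn. Among all genes called higher, 837 of 1130 had the higher 48 h value in library A.

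**Figure D2:**
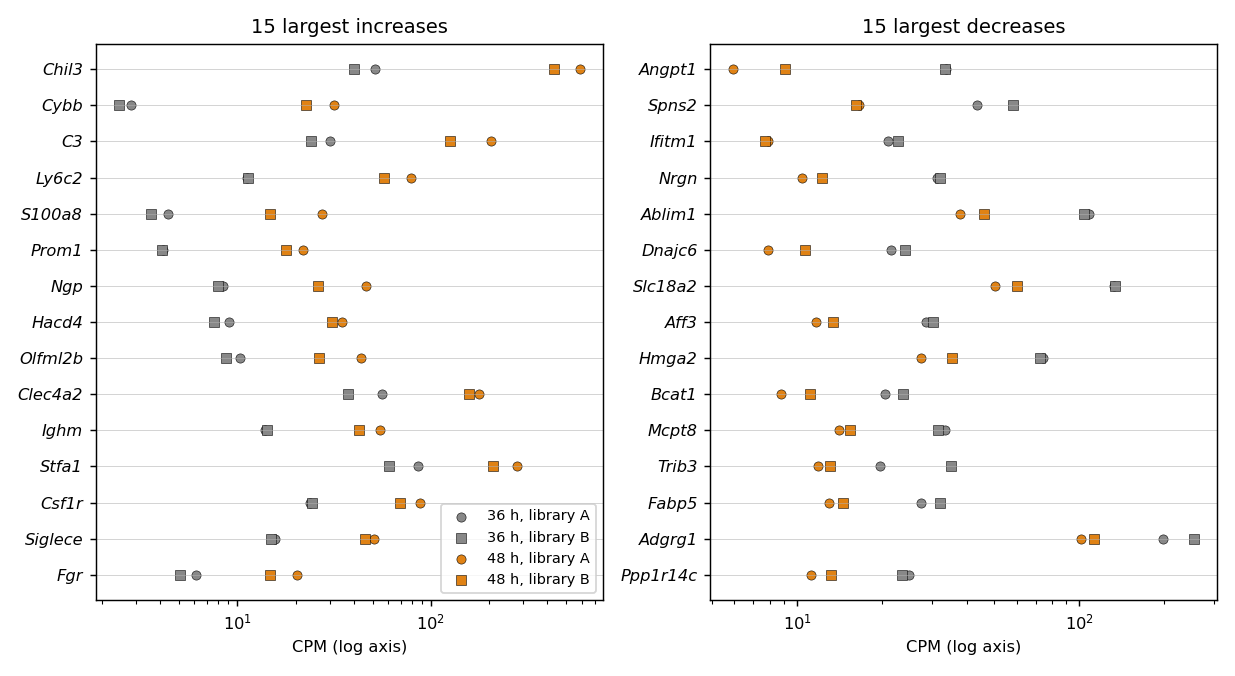
CPM (log axis) in each of the 4 libraries for the 15 largest increases (left) and the 15 largest decreases (right) for called genes averaging 3 or more log2 CPM; grey marks are 36 h and orange marks 48 h, circles A and squares B. Rows were picked so that 36 h and 48 h marks do not overlap. Among the increases library A at 48 h lies right of library B.

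The start regions of 3 of these genes are shown because they hold the core letters bound by C/EBP proteins, a family of transcription factors of granulocyte genes that includes C/EBP-alpha and C/EBP-epsilon. The core was searched as TTGCNNAA or TTNNGCAA on both strands in RefSeq promoter windows (GRCm38.p6) of 300 bases, from 250 before to 50 after the start, and each is printed 5′ to 3′ on the strand of its gene with matches in capitals.
C3 (chr17:57228087-57228386, minus strand): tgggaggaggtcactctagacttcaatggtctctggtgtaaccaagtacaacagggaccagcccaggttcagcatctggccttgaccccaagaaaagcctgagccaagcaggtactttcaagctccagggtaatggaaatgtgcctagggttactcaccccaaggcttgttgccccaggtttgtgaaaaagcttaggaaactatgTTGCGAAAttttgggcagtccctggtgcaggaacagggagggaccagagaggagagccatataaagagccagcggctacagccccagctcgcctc
Ngp (chr9:110419558-110419857, plus strand): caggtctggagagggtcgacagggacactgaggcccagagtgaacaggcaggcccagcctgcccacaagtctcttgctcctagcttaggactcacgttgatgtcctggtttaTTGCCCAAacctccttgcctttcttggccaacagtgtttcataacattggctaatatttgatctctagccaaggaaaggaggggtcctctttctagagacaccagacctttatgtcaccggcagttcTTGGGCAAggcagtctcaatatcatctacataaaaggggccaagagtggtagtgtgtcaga
Stfa1 (chr16:36276898-36277197, plus strand): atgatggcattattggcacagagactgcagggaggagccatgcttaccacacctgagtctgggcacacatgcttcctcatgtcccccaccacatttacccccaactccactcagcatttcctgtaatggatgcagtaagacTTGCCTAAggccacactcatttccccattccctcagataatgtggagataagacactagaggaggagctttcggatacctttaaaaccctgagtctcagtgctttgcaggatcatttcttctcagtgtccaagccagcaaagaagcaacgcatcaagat
In C3 the match TTGCGAAA begins 45 bases before the start. Ngp holds TTGCCCAA at 138 and TTGGGCAA at 11 bases before it, and Stfa1 holds TTGCCTAA at 109 bases before it. Of the 15 largest increases 13, all but Csf1r and Ighm, had a window in this search, and these 3 had a match. Of the 15 largest decreases 13 had a window in it, and 0 had a match. A chromosome was left out of this search, though not of the shares below. A gene without a window here therefore need not lack a promoter window. Over all genes called higher by at least 2-fold, 19.9% of 317 windows (240 of 316 genes) held the C/EBP core, against 3.95% of 76 windows (62 of 87 genes) for those called lower by at least 2-fold and 9.03% of 12919 windows of all genes tested. Median GC content was 52.7% in the windows of the increases, 58.2% in those of the decreases and 60% in those of all genes tested, and its part in the shares was not tested. An E2F core (TTTGGCGC, TTTCCCGC or TTTCGCGC), the motif of cell cycle factors, was in 0.631, 0 and 3.41% of the same 3 sets, and the E-box CACGTG, which MYC can bind, in 5.05, 6.58 and 9.75%. Over all 32851 RefSeq windows, with a median GC content of 52.7%, the C/EBP core was in 10.8%, the E2F core in 1.84% and the E-box in 7.15%. These shares describe letters in windows, and a match is not a bound site.

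Among granule proteins, most secondary granule genes rose, while most primary granule genes did not pass the test. Of 25 secondary granule genes tested, 15 rose and 0 fell, with a median log2 change of 1.68 against 0 over all genes tested. Over all genes tested 7.73% were called higher and 5.01% lower, the shares to set beside the counts of every list below. Summed over the list, the level was 1046 and 975 CPM at 36 h and 2518 and 1858 CPM at 48 h. The count of risers was 10 without 36 h B or without 48 h A. Mmp8, neutrophil collagenase, had 1.05 and 1.22 CPM at 36 h and 7.57 and 6.72 CPM at 48 h (log2 2.64 ± 0.27, adjusted p = 1.87e-06). Olfm4, olfactomedin 4 of specific granules, had 0.559 and 0.560 CPM at 36 h and 10.6 and 5.74 CPM at 48 h (log2 3.85 ± 0.33, adjusted p = 1.47e-07). Camp, cathelicidin, was still rare, with 13 and 5 counts at 36 h and 61 and 40 counts at 48 h, and its log2 change was 2.4 ± 0.51 (adjusted p = 0.00405). The call for Camp was lost without 36 h B and without 48 h A. Ltf, lactoferrin, at 0.925 and 1.06 CPM at 36 h and 2.33 and 1.80 CPM at 48 h, and Lcn2, lipocalin 2, at 47.7 and 49.4 CPM at 36 h and 77.6 and 55.7 CPM at 48 h, did not pass (adjusted p = 0.0846 and 0.108), although neither gene's groups overlap. Lyz2, the lysozyme gene of granulocytes and macrophages, had no read in any of the 4 libraries, whereas its neighbour Lyz1 rose from 0.339 ± 0.0982 to 1.89 ± 0.239 CPM. By their name the cells carry a lysozyme-GFP reporter, and its effect on the Lyz2 row was not tested. Orm1 had no read either, and both are among the 25 genes tested.

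Mpo, Ctsg and Prtn3, abundant primary granule transcripts, did not pass the test. Mpo, myeloperoxidase, had 10073 and 10910.2 CPM at 36 h and 9634 and 8215 CPM at 48 h (log2 -0.23 ± 0.23, adjusted p = 0.569). Ctsg, cathepsin G, had 2212 and 2156 CPM at 36 h and 2003 and 1832 CPM at 48 h, and Prtn3, proteinase 3, had 903 and 992 CPM at 36 h and 1431 and 1022 CPM at 48 h, with adjusted p-values of 0.538 and 0.208. Elane, neutrophil elastase, did rise, with 37.0 and 39.8 CPM at 36 h and 95.9 and 65.6 CPM at 48 h (log2 1.07 ± 0.21, adjusted p = 0.00212), a call that was lost without 48 h A. Of 15 primary granule genes tested 4 rose and 1 fell (26.7% and 6.67%, beside 7.73% and 5.01% of all genes tested), with a median of 0.18. The member that fell was Calr, an abundant chaperone gene that the list of secretory machinery also holds, with 4841 and 4829.8 CPM at 36 h and 3511 and 3702 CPM at 48 h (log2 -0.42 ± 0.11, adjusted p = 0.013), a call kept only without 48 h B. Only 1 rose without 36 h B or without 48 h A, and the 4 include the protease gene Prss57 (log2 0.72 ± 0.17, a call lost without 36 h A, 36 h B or 48 h A). Of 14 genes of tertiary granules and secretory vesicles 6 rose, or 3 without 36 h B or without 48 h A. They include Hsd11b1 (1.18 ± 0.13), which regenerates active glucocorticoid, and Cfp (0.93 ± 0.13), properdin of the complement system. Mmp9, gelatinase B, the classical tertiary granule enzyme, stood at 1.16 and 1.04 CPM at 36 h and 1.79 and 1.37 CPM at 48 h and did not pass (adjusted p = 0.507). The summed levels of these list genes cannot tell a change in the number of mature cells from a change in RNA per cell, a limit that holds for every transcript here.

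Of 10 phagocyte NADPH oxidase genes 5 rose, with Cybb far ahead of the cytosolic subunit genes Ncf1 and Ncf4. Ncf1 (p47phox) rose by 0.59 ± 0.11, from 321 ± 6.71 to 482 ± 53.2 CPM, and Ncf4 (p40phox) by 0.61 ± 0.12. Both of these increases were smaller than a doubling. The count was 2 without 48 h A and 3 without either 36 h library, and the call for Ncf4 was lost only without 48 h A.

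Many mature neutrophil transcripts rose as well. Of 29 genes of that list 17 rose and 1 fell, with a median of 0.62, and the risers numbered 9 without 36 h B or without 48 h A. S100a9, the partner of S100a8, had 1.63 and 1.72 CPM at 36 h and 5.90 and 3.90 CPM at 48 h (log2 1.54 ± 0.28, adjusted p = 9.08e-04). Cxcr2, the receptor for neutrophil-attracting chemokines, had 6.04 and 5.62 CPM at 36 h and 12.4 and 10.9 CPM at 48 h (log2 1.00 ± 0.19, adjusted p = 0.00119). Csf3r, the G-CSF receptor, had 63.0 and 62.5 CPM at 36 h and 92.1 and 74.0 CPM at 48 h, and its small change of 0.40 ± 0.13 passed narrowly (adjusted p = 0.0493) and not without 36 h A, 36 h B or 48 h A. The member that fell was Ifitm1, an interferon-inducible membrane protein, with 21.0 and 22.8 CPM at 36 h and 7.92 and 7.69 CPM at 48 h (log2 -1.49 ± 0.18).

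Many genes of surface receptors and their signalling partners rose. Itgam, the CD11b integrin chain (ENSMUSG00000030786.15, chromosome 7, 128062640 to 128118491, plus strand), had 122 and 107 CPM at 36 h and 399 and 302 CPM at 48 h (log2 1.62 ± 0.14, adjusted p = 1.76e-07), and its partner Itgb2 had 105 and 99.0 CPM at 36 h and 284 and 215 CPM at 48 h (log2 1.29 ± 0.12). Their groups are well apart, and library A exceeds B at 48 h in both. Over the whole list of integrins and selectin ligands, however, 3 of 18 genes rose (16.7%, beside 7.73% of all genes tested), or 5 in DESeq2, which also called 1 lower. Of 21 Fc receptor and C-type lectin genes 13 rose and 0 fell (median 0.64, 8 risers without 36 h B or without 48 h A). Clec12a, an inhibitory lectin of granulocytes and monocytes, rose from 208 ± 37.4 to 447 ± 41.7 CPM (log2 1.10 ± 0.12), and Cd300lf by 2.24 ± 0.28. Fcgr3, an activating receptor for IgG, went from 216 ± 11.7 to 268 ± 13.99 CPM.

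Of 26 Toll-like receptor pathway genes 14 rose and 0 fell, with a median of 0.68 (0.83 over those with a read). With any 1 library left out, 11 to 12 rose. Of the sensors of nucleic acids 4 rose from very low levels, while Tlr3 had no read in the 4 libraries. Tlr7 went from 0.466 ± 0.101 to 3.42 ± 0.871 CPM, Tlr8 from 0.0845 ± 0.00214 to 1.20 ± 0.189, Tlr9 from 0.297 ± 0.0673 to 1.29 ± 0.237 and Tlr13 from 0.222 ± 0.00931 to 1.75 ± 0.235. Tlr2, which senses bacterial lipoproteins, rose by 0.99 ± 0.21, the inflammasome sensor Nlrp3 by 0.97 ± 0.15 and Nlrp12 by 1.36 ± 0.17. Tlr4, the lipopolysaccharide receptor, at 99.1 and 92.6 CPM at 36 h and 108 and 130.2 CPM at 48 h, and the shared adaptor Myd88, at 31.8 and 34.0 CPM at 36 h and 41.9 and 37.7 CPM at 48 h, were not called.

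Of 17 chemoattractant receptor genes 9 rose and 0 fell (median 0.73), and 5 rose without 36 h B and 6 without 48 h A. Ccr1, a receptor for CCL3 and related chemokines, had 16.0 and 14.8 CPM at 36 h and 40.2 and 37.2 CPM at 48 h (log2 1.33 ± 0.14), and its ligand gene Ccl3 rose by 1.38 ± 0.25. The receptor for platelet-activating factor, Ptafr, rose by 0.88 ± 0.12. Ccr2, the monocyte receptor for CCL2, had 16.4 and 15.3 CPM at 36 h and 16.1 and 17.8 CPM at 48 h and was not called (log2 0.09 ± 0.15, adjusted p = 0.747). Among 27 hematopoietic growth factor receptor genes 11 rose and 1 fell (median 0.38), and the risers were 5 without 36 h B or 48 h A and 7 without 36 h A. Beside Csf1r these include the IL-6 receptor chain Il6ra (1.15 ± 0.13), the interferon gamma receptor chain Ifngr1 (0.65 ± 0.09) and Csf2rb2 (1.03 ± 0.15), a beta chain for IL-3 that shares most of its sequence with Csf2rb. Flt3, a receptor of multipotent progenitors, fell by 0.91 ± 0.23, a call kept only without 48 h B. Kit, the receptor for the Stem Cell Factor in the medium, had 375 and 392 CPM at 36 h and 361 and 396 CPM at 48 h and was not called (log2 -0.02 ± 0.11, adjusted p = 0.956).

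Markers of other blood lineages did not move as a block. Eosinophil genes rose in 10 of 15 cases with 1 lower (median 1.37), and again 10 rose with any 1 of the 4 libraries left out. Prg2, the major basic protein of eosinophil granules, had 795 and 686 CPM at 36 h and 1637 and 1294 CPM at 48 h (log2 0.99 ± 0.13, adjusted p = 2.54e-05). Epx, eosinophil peroxidase, had 4.95 and 5.00 CPM at 36 h and 16.3 and 11.1 CPM at 48 h (log2 1.46 ± 0.19), and the ribonuclease genes Ear2 and Ear6, which have near-identical relatives, rose by 1.91 ± 0.22 and 2.07 ± 0.25. Il5ra, the lineage's IL-5 receptor chain, at 3.51 and 2.68 CPM at 36 h and 3.64 and 4.56 CPM at 48 h, and Prg3, at 874 and 702 CPM at 36 h and 722 and 641 CPM at 48 h, did not pass. The summed level of the eosinophil list was 1841 and 1548 CPM at 36 h and 2660 and 2200.5 CPM at 48 h. Most of it came from Prg2 and Prg3, of which only Prg2 was called. The part of such cells in the other increases was not tested.

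Of 28 monocyte and macrophage genes 11 rose and 0 fell (median 0.81, or 0.89 over those with a read), and 9 to 10 rose with any 1 library left out. Adgre1 (F4/80) rose by 1.48 ± 0.13, from 25.4 ± 2.18 to 70.7 ± 4.76 CPM, and Ms4a6c went from 22.4 ± 1.36 to 43.6 ± 6.47 CPM. Defining tissue macrophage genes stayed at or near 0, with no read for Marco, Mertk and Timd4. The summed level of the list was 701 and 743 CPM at 36 h and 1116 and 1088 CPM at 48 h. Of 10 mast cell and basophil genes tested 3 fell, 0 rose and 7 were not called. Cpa3, mast cell carboxypeptidase, had 408 and 362 CPM at 36 h and 179 and 219 CPM at 48 h (log2 -0.95 ± 0.14), and the basophil protease gene Mcpt8 had 33.5 and 31.6 CPM at 36 h and 14.1 and 15.5 CPM at 48 h (log2 -1.14 ± 0.12).

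Of 17 B cell genes tested 3 rose and 3 fell (17.6% each, beside 7.73% higher and 5.01% lower of all genes tested). Ighm and Bank1 (0.92 ± 0.16) were among the higher, whereas Igll1, the surrogate light chain of pre-B cells, fell by 0.92 ± 0.14, and Ms4a1, Cd22 and Rag1 had no read. Of 25 T and NK cell genes only 9 could be tested and 15 had no read in the 4 libraries, among them Cd3d, Cd3e, Cd4 and Cd8a. Within that list Cd28 rose by 1.34 ± 0.12 and Tcf7, a factor of T cells and early progenitors, fell by 0.84 ± 0.11. None of 8 erythroid genes tested was called by edgeR (0 higher and 2 lower at an unadjusted p under 0.05, and 1 lower in DESeq2 and in 3 other edgeR fits). In the dendritic cell and MHC class II list 3 of 18 rose (16.7%) and 1 fell. H2-DMa and H2-DMb1, which load peptides, rose by 1.22 ± 0.19 and 0.48 ± 0.12, the latter call lost without 36 h A, 36 h B or 48 h A. H2-Aa and Cd74, the class II alpha chain and invariant chain, stayed under 0.1 CPM.

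Most transcription factor genes of myeloid cells did not pass the test. Of those tested 23.2% were called higher and 2.90% lower, beside 7.73% and 5.01% of all genes tested. Of 69 tested 16 rose and 2 fell (median 0.14), with 10 risers without 48 h A and 11 without either 36 h library. Id2, an inhibitor of E proteins, had 5.05 and 4.09 CPM at 36 h and 13.3 and 11.7 CPM at 48 h (log2 1.46 ± 0.22, adjusted p = 1.19e-04). Klf6, a zinc finger factor of myeloid cells, had 26.6 and 24.9 CPM at 36 h and 51.5 and 52.3 CPM at 48 h (log2 1.01 ± 0.14), and the interferon regulatory factor gene Irf8 had 16.5 and 18.1 CPM at 36 h and 32.1 and 28.8 CPM at 48 h (log2 0.82 ± 0.10). These 3 have no overlap between times, and library A is not the higher at 48 h for Klf6. Irf4 and Mitf rose by 1.10 ± 0.18 and 1.13 ± 0.21. Cebpa, a driver of the granulocyte program, fell slightly, with 163 and 169 CPM at 36 h and 130.2 and 134 CPM at 48 h (log2 -0.33 ± 0.10, adjusted p = 0.0308), and that call was lost whichever of the 4 libraries was left out. Cebpe, the factor of specific granule genes, stood at 166 and 157 CPM at 36 h and 172 and 132 CPM at 48 h, and its log2 value of -0.09 ± 0.14 changed sign without 48 h B. Gfi1 (0.08 ± 0.14), Spi1, which encodes PU.1, (0.26 ± 0.11) and Cebpd (0.46 ± 0.16) were not called either.

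The Hoxa9 row, which may hold reads of the fusion as well as of the endogenous gene, had 216 and 223 CPM at 36 h and 297 and 280.2 CPM at 48 h (log2 0.39 ± 0.10, adjusted p = 0.0155), a call kept without 48 h B only. The row of Esr1, the estrogen receptor gene, may hold reads of the fusion too. It had 76.2 and 75.1 CPM at 36 h and 90.4 and 93.0 CPM at 48 h (log2 0.28 ± 0.09, adjusted p = 0.0555). Its groups do not overlap, but the change did not pass. Meis1, a partner of HoxA9, at 7.81 and 7.80 CPM at 36 h and 5.38 and 6.99 CPM at 48 h, and Myb, at 834 and 778 CPM at 36 h and 678 and 766 CPM at 48 h, did not pass (adjusted p = 0.114 and 0.526).

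The largest decreases at that minimum level included several progenitor genes, and Angpt1 led them. Angpt1, the ligand angiopoietin 1 made by blood progenitors (ENSMUSG00000022309.8, chromosome 15, 42424723 to 42676977, minus strand), had 33.8 and 33.5 CPM at 36 h and 5.95 and 9.08 CPM at 48 h. This is a fall of 4.47-fold (log2 -2.16 ± 0.19, adjusted p = 2.28e-07), and library A is the lower at 48 h. Spns2, a transporter of sphingosine 1-phosphate, had 43.3 and 58.3 CPM at 36 h and 16.6 and 16.2 CPM at 48 h (log2 -1.63 ± 0.13, adjusted p = 7.71e-08). Ablim1, an actin-binding protein, had 108 and 103 CPM at 36 h and 37.8 and 45.8 CPM at 48 h (log2 -1.34 ± 0.10), and Slc18a2, the vesicular monoamine transporter of mast cells and basophils, had 133 and 134 CPM at 36 h and 50.4 and 60.02 CPM at 48 h (log2 -1.27 ± 0.10). Their 36 h libraries agree closely, and both 48 h libraries are at less than 50% of them. Hmga2, a chromatin protein of fetal and self-renewing cells, had 74.1 and 72.4 CPM at 36 h and 27.4 and 35.3 CPM at 48 h (log2 -1.22 ± 0.15). Adgrg1, the adhesion receptor GPR56 of stem and progenitor cells, had 198 and 256 CPM at 36 h and 101 and 113 CPM at 48 h (log2 -1.09 ± 0.15). The calmodulin-binding Nrgn fell by 1.48 ± 0.12 on the log2 scale, the clathrin-uncoating cofactor gene Dnajc6 by 1.30 ± 0.16, the nuclear factor gene Aff3 by 1.23 ± 0.14, the branched-chain aminotransferase gene Bcat1 by 1.15 ± 0.16, the fatty acid carrier gene Fabp5 by 1.11 ± 0.14 and the phosphatase inhibitor gene Ppp1r14c by 0.99 ± 0.11. Together with Ifitm1, Mcpt8 and Trib3 these are the 15 largest decreases. Of these 15, library A was below B at 48 h in 13, and 14 stayed called without each of the 4 libraries. The exception, Trib3, was not called without 36 h B.

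Over the list of stem and progenitor genes 11 of 31 fell and 2 rose (median -0.28), with 7 to 10 falling when any 1 library was left out. Cd34, the sialomucin of progenitors, had 367 and 388 CPM at 36 h and 222 and 247 CPM at 48 h (log2 -0.69 ± 0.09, adjusted p = 3.82e-05), and the transcription factor gene Sox4 went from 18.0 ± 0.158 to 10.0 ± 2.23 CPM. The 2 that rose, 6.45% beside 7.73% of all genes tested, were Prom1 and Hoxa9. Those that fell were 35.5%, beside 5.01%. Lmo2, at 167 and 158 CPM at 36 h and 156 and 156 CPM at 48 h, and Erg, at 68.7 and 60.9 CPM at 36 h and 66.3 and 64.9 CPM at 48 h, are transcription factor genes of the same list that were not called.

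**Figure D3:**
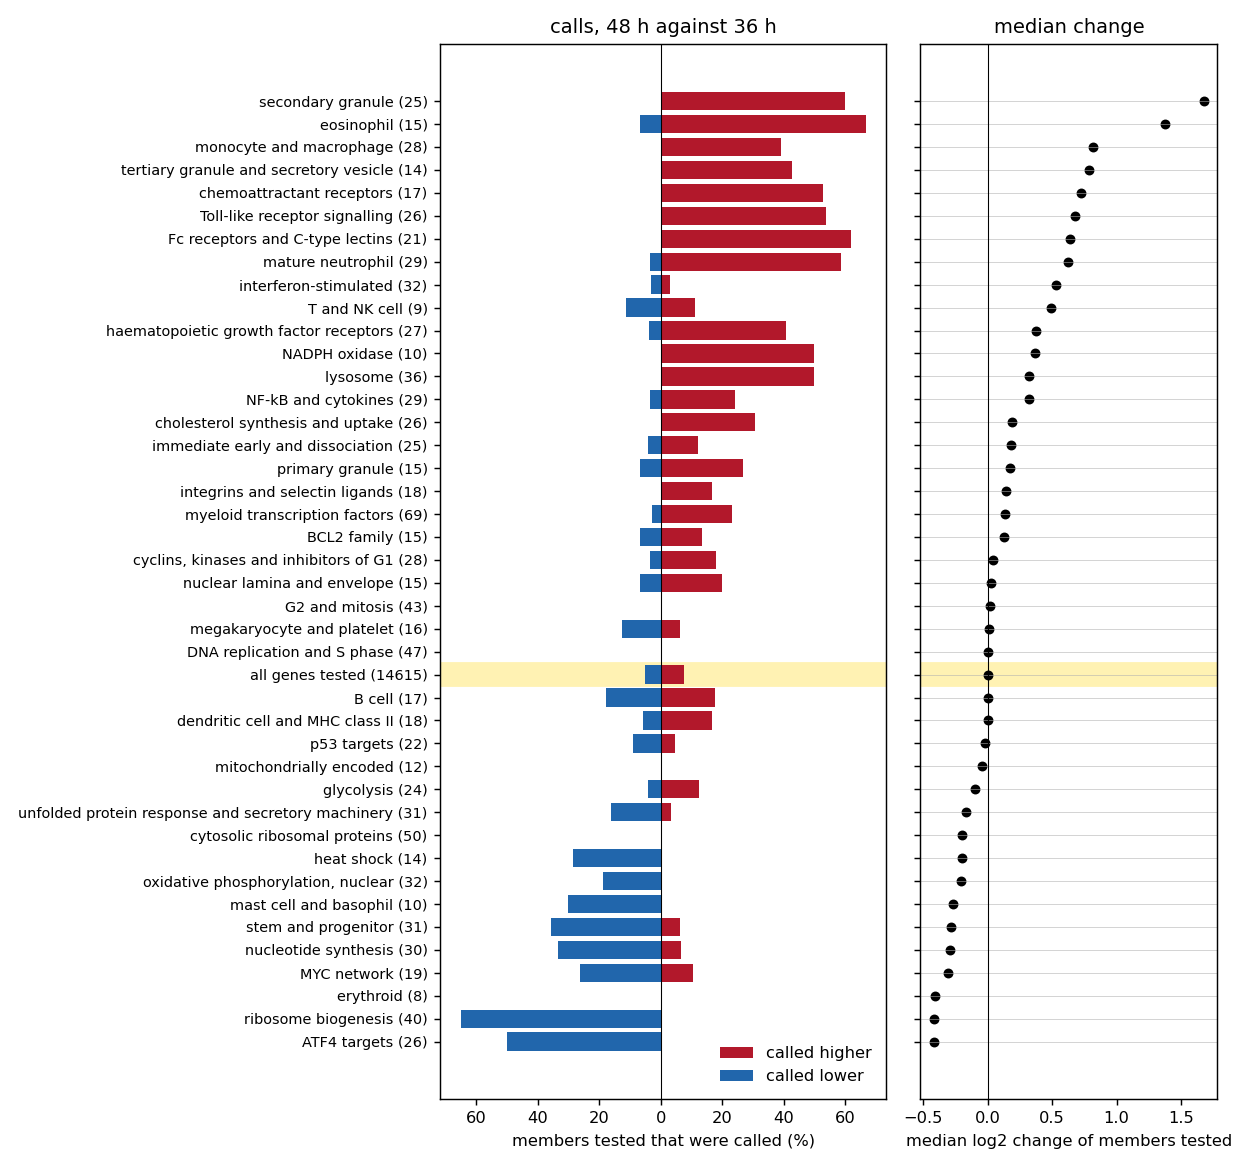
Share of tested members called higher (red) or lower (blue) at 48 h against 36 h for each gene list (left) and the median log2 change of its tested members (right); the number tested stands beside each list name. Granule, receptor, eosinophil and monocyte lists lie right of 0, while ribosome biogenesis (26 of 40 lower) and ATF4 targets (13 of 26 lower) lie left of it.

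Over all 14615 genes tested, 3748 had an unadjusted p under 0.05 in either direction. For lists in which edgeR called 0 members in 1 direction, members with an unadjusted p under 0.05 in that direction were counted. They were 2 Fc receptor and C-type lectin genes, 2 genes of tertiary granules and secretory vesicles, 1 integrin gene and 1 monocyte and macrophage gene that were lower, and 2 mast cell and basophil genes and 1 heat shock gene that were higher. In the lists of secondary granules, Toll-like receptor signalling, chemoattractant receptors, lysosome, cholesterol, ribosome biogenesis, ATF4 targets and oxidative phosphorylation there were 0. DESeq2 called 0 in that direction in each of these lists but that of integrins, with 1 lower. Other edgeR fits made such calls. When only the 36 and 48 h libraries were fitted, 2 Fc receptor and C-type lectin genes, 2 tertiary granule genes and 1 integrin gene were called lower and 2 mast cell and basophil genes higher.

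Many transcripts of ribosome production fell by small amounts. Of 40 ribosome biogenesis genes 26 fell (65%, beside 5.01% of all genes tested) and 0 rose (median -0.41). Both 48 h libraries were below both 36 h libraries in 39 of them, beside 27% of all genes tested. The summed level was 10391 and 10589 CPM at 36 h and 7454 and 8224 CPM at 48 h. Ncl, nucleolin, had 1921 and 1789.5 CPM at 36 h and 1235 and 1436 CPM at 48 h (log2 -0.47 ± 0.11, adjusted p = 0.00518), Nolc1, a nucleolar chaperone, had 485 and 534 CPM at 36 h and 342 and 369 CPM at 48 h (log2 -0.52 ± 0.11), and Polr1b, a subunit of RNA polymerase I, had 89.9 and 105 CPM at 36 h and 65.3 and 69.9 CPM at 48 h (log2 -0.53 ± 0.14). Each of them kept its direction in every fit, but calls at this size depend on single libraries. Without 36 h A 15 of the 40 were called, without 36 h B 2, without 48 h A 7 and without 48 h B 21. Of 50 cytosolic ribosomal protein genes 0 were called by edgeR, where 7 were lower at an unadjusted p under 0.05, and 0 by DESeq2, whereas edgeR called 2 lower with no filter on low counts or with only the 36 and 48 h libraries fitted, and 1 lower with the libraries of 24 to 72 h. An unadjusted p under 0.05 in either direction was reached by 3748 of all 14615 genes tested. The median of the ribosomal protein genes was -0.19. In 41 of them both 48 h libraries were below both of 36 h, beside 27% of all genes tested.

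Of 26 targets of ATF4, the factor that turns on amino acid synthesis and transport under stress, 13 fell, 0 rose and 13 were not called (median -0.42). Trib3, a pseudokinase that dampens this response, had 19.7 and 35.2 CPM at 36 h and 11.9 and 13.1 CPM at 48 h (log2 -1.13 ± 0.22, adjusted p = 0.00165), and its 36 h libraries differed by more than the lower of them exceeded 48 h. Phgdh, the first enzyme of serine synthesis, had 162 and 203 CPM at 36 h and 111 and 111 CPM at 48 h (log2 -0.71 ± 0.19), and Wars, the tryptophan tRNA ligase, had 99.0 and 119.7 CPM at 36 h and 71.8 and 70.2 CPM at 48 h (log2 -0.62 ± 0.11). In all 3 of these genes library B was the higher at 36 h. Without 36 h B only 1 member of the list was called, and 12, 4 and 7 were called without 36 h A, 48 h A and 48 h B. Of 30 nucleotide synthesis genes 10 fell and 2 rose (median -0.29), but none fell by edgeR without 36 h B or without 48 h A, 3 without 48 h B and 7 without 36 h A. Of 19 genes of the MYC network 5 fell and 2 rose (median -0.30), with 2 falling without 36 h B and 1 without 48 h A. Lower were 33.3% of the nucleotide synthesis and 26.3% of the MYC network genes, beside 5.01% of all genes tested. Higher were 6.67% and 10.5%, beside 7.73%. Odc1, which makes polyamines, fell by 0.62 ± 0.11, whereas Myc itself had 325 and 348 CPM at 36 h and 257 and 288 CPM at 48 h and did not pass (adjusted p = 0.0668). Of 32 nuclear genes of oxidative phosphorylation 6 fell and 0 rose, and at most 1 fell with any 1 library left out. Of 31 genes of the unfolded protein response and secretory machinery 5 fell and 1 rose, with 0 to 2 falling when any 1 library was left out. Calr is among those that fell, which were 16.1% of that list beside 5.01% of all genes tested. Of 14 heat shock genes 4 fell, or 1 without 36 h B or 48 h A. Hspe1, a mitochondrial chaperonin, went from 137 ± 10.7 to 82.3 ± 2.57 CPM (log2 -0.74 ± 0.14).

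In the fit on all 20 libraries no member of the lists for proliferation passed edgeR's test, with 0 of 47 DNA replication and S phase genes (median 0.00) and 0 of 43 G2 and mitosis genes (median 0.02), and DESeq2 called 0 in both. With the libraries of 24 to 72 h, or only those of 36 and 48 h, edgeR called 1 G2 and mitosis gene higher. At an unadjusted p under 0.05, 1 S phase gene was lower and 1 G2 and mitosis gene was higher. Mki67, a marker of cycling cells, had 575 and 529 CPM at 36 h and 635 and 675 CPM at 48 h (log2 0.25 ± 0.13, adjusted p = 0.229), and the replication clamp gene Pcna had 433 and 407 CPM at 36 h and 428 and 441 CPM at 48 h. Among 28 G1 regulators 5 rose (17.9%, beside 7.73% of all genes tested) and 1 fell, and 2 rose without 36 h A, 36 h B or 48 h A. Cdkn1b, the kinase inhibitor p27, had 20.9 and 21.6 CPM at 36 h and 31.4 and 32.0 CPM at 48 h (log2 0.58 ± 0.10, adjusted p = 5.43e-04), with tight replicates at both times. In the BCL2 family the survival gene Bcl2 fell, with 36.1 and 36.2 CPM at 36 h and 17.9 and 21.4 CPM at 48 h (log2 -0.88 ± 0.14), and the death-promoting gene Bmf rose, with 0.882 and 0.913 CPM at 36 h and 4.82 and 3.85 CPM at 48 h (log2 2.27 ± 0.21, adjusted p = 3.99e-07). Both kept their calls without each library, and 12 of 15 family members tested were not called.

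Lysosome genes rose in 18 of 36 cases with 0 lower (median 0.32), or in 9 without 36 h B, 10 without 48 h A and 11 without 36 h A. Ctsb, the cysteine protease cathepsin B, rose from 263 ± 11.2 to 430.4 ± 44.4 CPM (log2 0.71 ± 0.12), and Grn, progranulin, from 135 ± 7.53 to 238 ± 39.6 CPM (log2 0.82 ± 0.13). Cholesterol genes rose in 8 of 26 cases with 0 lower (median 0.19), or in 1 without 36 h A, 4 without 36 h B and 2 without 48 h A. Sc5d, an enzyme late in the pathway, rose by 0.43 ± 0.08 and kept its call in each of those fits. Of 32 interferon-stimulated genes, with a median of 0.53, edgeR called 1 higher and 1 lower. These are 3.125% each, beside 7.73% higher and 5.01% lower of all genes tested. The number called higher depended on the fit, with 8 when no filter on low counts was used, when only the 36 and 48 h libraries were fitted or when those of 24 to 72 h were, 4 with the replicate block and 0 to 1 with any 1 library left out. The list's summed level was low, at 163 and 156 CPM at 36 h and 201 and 191 CPM at 48 h, and DESeq2 called 5 higher and 1 lower.

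The table also holds 1 row whose identifier is not an Ensembl gene, and the labels do not say what it is. It had 9.64 and 9.09 CPM at 36 h and 79.8 and 51.2 CPM at 48 h (log2 2.81 ± 0.17, adjusted p = 1.43e-09). Its groups lie far apart, with library A the higher at 48 h. The row was named after its values were seen.

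Set beside its neighbours, the step from 36 to 48 h had more calls than the step from 24 to 36 h and fewer than that from 48 to 72 h, which is 24 h long. The counts were 1050 genes (7.18%) for 36 h against 24 h and 6429 (44%) for 72 h against 48 h. These comparisons share libraries with that of 48 h against 36 h, so their values are only placed side by side. Chil3 changed by 2.62, 3.47 and 4.25 in the successive steps, and Cybb by 2.64, 3.36 and 4.30. S100a9 had 0.49, 1.54 and 7.57, and Ltf 0.72, 1.05 and 6.98. For both of these late neutrophil genes the value of the 24 h step after 48 h was several times that of the step described here. Angpt1 had -1.67, -2.16 and -3.08, and Cd34 -1.16, -0.69 and 0.02. The median of the secondary granule list was 0.95, 1.68 and 4.25 in the 3 steps, that of the eosinophil list 1.13, 1.37 and 0.94, and that of ribosome biogenesis -0.22, -0.41 and -0.98. The step from 12 to 24 h, which shares no library, had 2859 calls (19.6%). Of these, 725 were also called at 48 h against 36 h, which is 38.9% of the 48 h calls and 25.4% of the 24 h calls, and 430 went the same way and 295 the opposite way.

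**Figure D4:**
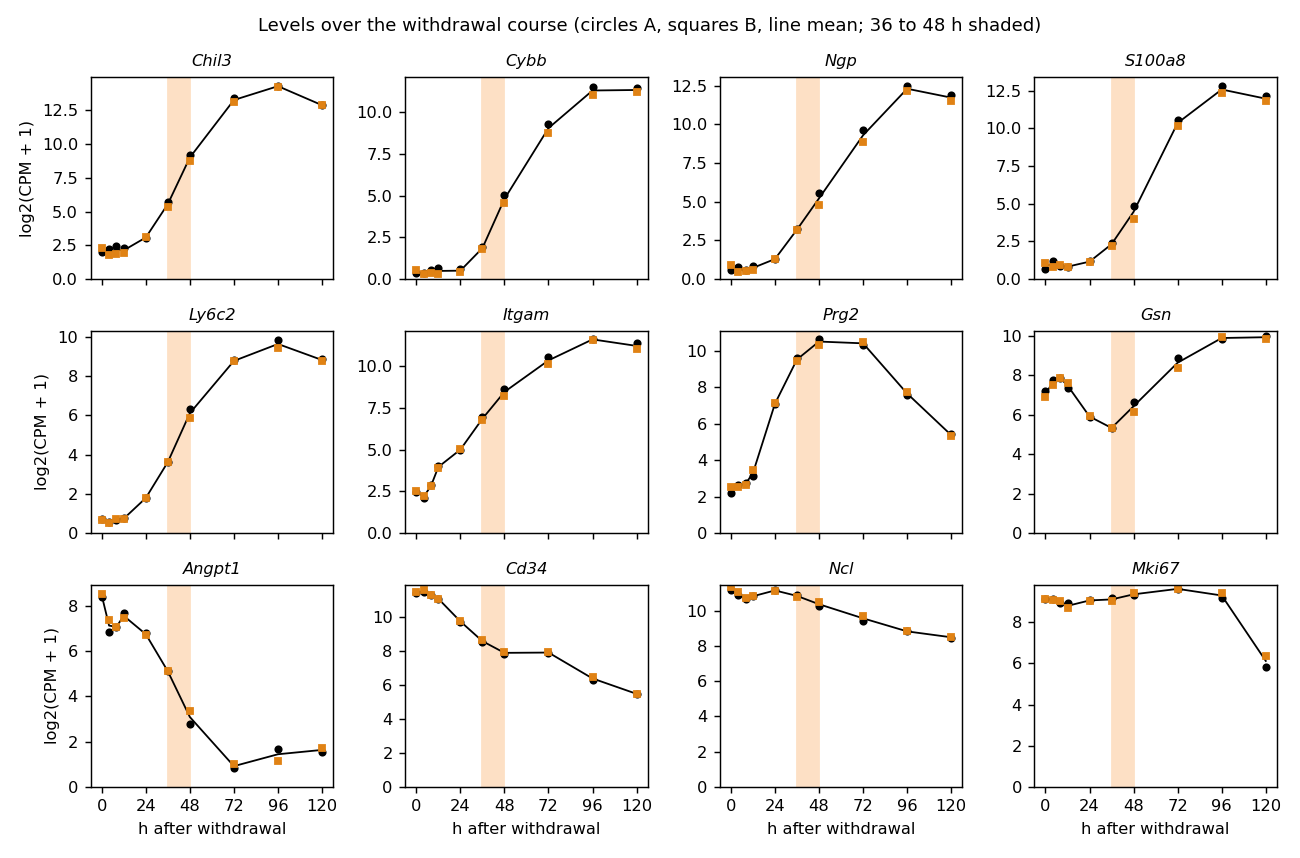
Levels as log2(CPM + 1) (vertical axes) over h after withdrawal (horizontal axes) for 12 genes, with circles for library A, squares for library B, a line through the means and the 36 to 48 h step shaded. Chil3, Cybb, Ngp and S100a8 are early in a climb that goes on to 96 h, Prg2 has its highest mean at 48 h, Gsn turns upward from its lowest mean at 36 h, and Mki67 has means of 552 and 655 CPM at the ends of the step.

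The full course places the step within each gene's trajectory. Chil3 had a mean of 7.46 CPM at 24 h, 46.0 at 36 h, 511 at 48 h and 9742 at 72 h. S100a8 had 1.24, 3.98, 21.1 and 1307 CPM at the same times. Prg2 had 137, 740.3, 1466 and 1369 CPM, and then 40.6 CPM at 120 h. Its highest mean was at 48 h, but the 48 and 72 h means differ by less than the SD of the 48 h pair. Elane likewise had 38.4, 80.8 and 97.7 CPM at 36, 48 and 72 h and 3.71 CPM at 120 h. Angpt1, at 356 CPM at 0 h, was down to 33.6 at 36 h, 7.51 at 48 h and 0.884 at 72 h.

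A direct test asked whether a gene's change from 36 to 48 h differed from its change from 24 to 36 h. It called 15 genes (0.103%), 13 (0.0889%) with a positive and 2 (0.0137%) with a negative difference. Of all 14615 genes tested, 621 had an unadjusted p under 0.05. Such a threshold passes a share of 0.05 where no gene differs, and 621 is under that share. The 36 h libraries enter both steps with opposite signs, and the count was 0 without 36 h B and 1 without 36 h A. Prg2 and Syne1, which encodes a protein that links the nucleus to actin, were the 2 that slowed. Prg2 changed by 2.44 in the earlier step and 0.99 in the later (difference -1.45 ± 0.21, adjusted p = 0.00541), and Syne1 by 1.87 and 0.85 (difference -1.02 ± 0.18, adjusted p = 0.0195). Gsn, the actin-severing protein gelsolin, turned from -0.59 to 1.12 (difference 1.71 ± 0.29, adjusted p = 0.0186), with 39.6 and 38.5 CPM at 36 h and 99.98 and 70.2 CPM at 48 h. Pou2f2, a POU transcription factor gene, turned from -0.83 to 0.77 (difference 1.60 ± 0.27, adjusted p = 0.0186), and the collagen gene Col4a5 from -0.83 to 0.67. These 3 fell in the first step and rose in the second. Ccr2 and Endod1 fell in the earlier step (-1.34 and -0.76) and had values near 0 in the later (0.09 and 0.04, neither called). Hacd4 and Milr1, an inhibitory receptor of mast cells, had larger changes in the later step, 1.97 against 0.55 and 1.07 against 0.14. Named after their values were seen, since they fall outside the rule for level, are Ctss, Pld4, Lsp1 and Ifitm6, with differences of 2.69 ± 0.38, 2.03 ± 0.28, 3.65 ± 0.56 and 3.32 ± 0.61, and Gm2a, left out by its symbol, with 0.85 ± 0.15. Ctss, cathepsin S, went from -1.26 to 1.44.

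**Figure D5:**
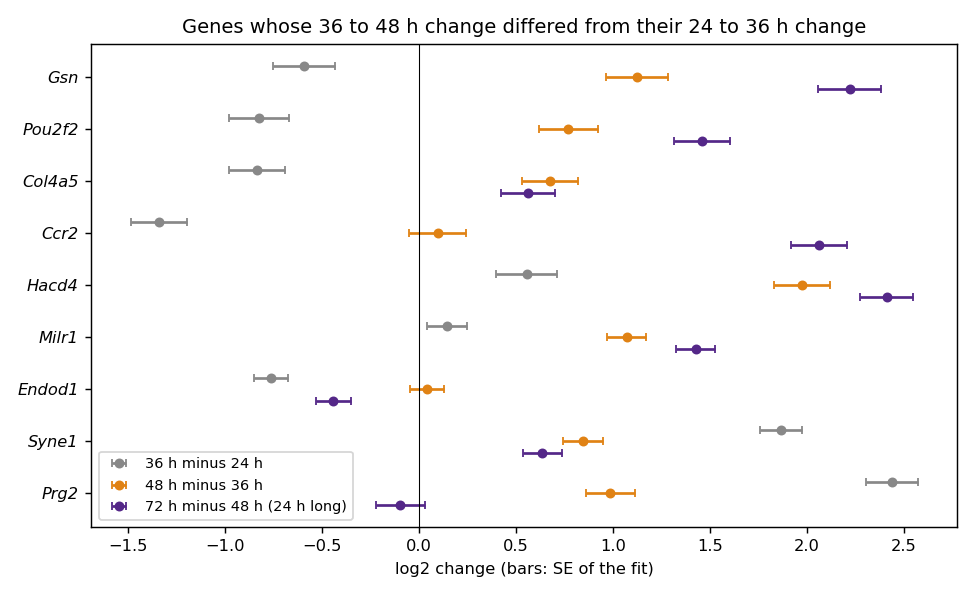
Log2 change with SE bars for 9 genes in the steps from 24 to 36 h, 36 to 48 h and 48 to 72 h (the last is 24 h long). Prg2 and Syne1 have a smaller increase in the middle step than in the first, while Gsn, Pou2f2 and Col4a5 cross from below 0 to above it.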

How the data were processed

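Libraries were made with a TruSeq stranded mRNA protocol (oligo dT selection) and sequenced as 101 bp paired ends, per the labels' protocols. The authors deposited raw whole-number counts per gene, without normalization. STAR 2.4.2a, Picard and mm10 are named in the submitters' processing notes, and the counting program, strand setting and annotation release are not given in the sources used here, so overlapping and antisense genes cannot be separated with certainty. Of 45323 lines, 4 hold reads that are unmapped, multimapping, ambiguous or outside genes and were left out of library sizes; 83.8 to 85.1% of reads at 36 and 48 h were assigned to genes. Symbols and positions (GRCm38) came from GENCODE annotation for 44585 of 45318 Ensembl genes.

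All 20 withdrawal libraries were fitted with time as a factor after filterByExpr and TMM scaling in edgeR 4.0.16 (R 4.3.3, limma 3.58.1). Quasi-likelihood tests were adjusted by Benjamini-Hochberg over 14615 genes and called under 0.05. The SE is the log2 change divided by the square root of F. CPM values use TMM-scaled library sizes. Counts were also simulated from the 36 h means for all libraries, with each gene's spread taken from the fit itself. Changes at 48 h, 100 of 2-fold and 100 of 1.5-fold, were planted only in genes above 1 CPM at 36 h. For 48 h against 36 h (13336 genes) 92% of 2-fold and 75% of 1.5-fold changes were recovered and 4.57% of calls were false. For the difference between steps 60% and 10% were recovered and 2.78% of calls were false. Recovery in rarer genes, or with a spread unlike the fitted one, was not tested. Genes were named by a rule: 31 anchors of the system; the 15 highest and 15 lowest called changes where the genes averaged 3 or more log2 CPM, had groups that do not overlap and no clone or pseudogene symbol; up to 8 differences between steps on each side; and up to 4 called members of a list in each direction that averaged 1 or more log2 CPM. Other members were named after their values were seen. The 41 gene lists and all members were chosen with earlier results of these data known. Lists are described by counts and medians with no set test. RLE scaling, no filter, DESeq2 1.42.0, fewer libraries in the fit, a replicate block and leaving out each library were tried.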

Additional observations from a re-analysis of the deposited data

Results flagged for a closer look

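For 10 transcripts the change from 36 to 48 h differed from that from 24 to 36 h by edgeR's test of the difference itself, with the adjustment over all genes. The log2 differences, later step minus earlier step, were -1.45 ± 0.21 for Prg2, -1.02 ± 0.18 for Syne1, 1.71 ± 0.29 for Gsn, 1.60 ± 0.27 for Pou2f2, 1.51 ± 0.26 for Col4a5, 1.44 ± 0.26 for Ccr2, 1.42 ± 0.26 for Hacd4, 0.93 ± 0.18 for Milr1, 0.80 ± 0.15 for Endod1 and 2.10 ± 0.31 for the row with the identifier that is not Ensembl. Adjusted p-values ran from 0.00541 (Prg2) to 0.048 (Endod1). That row, named after its values were seen, changed by 0.71 in the earlier step and 2.81 in the later. None of these 10 kept an adjusted p under 0.05 without 36 h A or without 36 h B, the libraries that enter both steps.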

How the results depend on the processing

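Without each 36 and 48 h library in turn, the genes called ranged from 557 to 1371, those higher from 433 to 940, those lower from 124 to 431 and those with at least a 2-fold change from 243 to 425. The lowest of each came without 36 h B. The lone library of a time was taken to vary like the other times. The other fits gave 1842 (RLE) to 2400 (only the 4 libraries compared) calls. Genes whose change differed between the steps numbered 15, but 111 without a filter, 52 with DESeq2, 59 with only the libraries compared, 41 with the 24 to 72 h libraries and 0 to 14 with a library left out (8 without 24 h A, 4 without 24 h B, 1 without 36 h A, 0 without 36 h B, 5 without 48 h A). Of 157 named genes called, all kept their direction in every fit and 89 stayed called in each; 59 were lost without 36 h B and 60 without 48 h A. Of genes not called, Cebpe ranged from -0.29 (without 48 h A) to 0.091 (without 48 h B) and Kit from -0.088 (without 48 h B) to 0.044 (without 48 h A), so both changed sign.

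The labels give 2 replicates a time and do not say whether the letters A and B pair libraries across times. The A minus B differences correlated at -0.04 between 36 and 48 h. Over the 45 pairs of times they ran from -0.16 to 0.22, with 7 over 0.1. These values cannot tell whether libraries of a letter share a source. With a replicate block on the letter, 2081 genes were called and 24 differed between the steps, and no named gene's call was lost.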
